A study of Homo sapiens with 8 samples.

Results

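Matrix metalloproteinases are zinc endopeptidases that are made as inactive proenzymes and, once activated, cut collagens, gelatins, laminins and other matrix and cell surface proteins. Tissue inhibitors of metalloproteinases, the TIMPs, bind the active enzymes and block them. In mammary epithelium these genes take part in gland branching and involution, and many of them respond to TGF-β, which drives epithelial cells toward a mesenchymal state. The 10 genes described here were chosen by name: the collagenases MMP1 and MMP13, the stromelysins MMP3 and MMP10, the gelatinases MMP2 and MMP9, the membrane-anchored MMP14, and the inhibitors TIMP1, TIMP2 and TIMP3. All 10 were found, among 25166 gene symbols, as 12 of the 48175 RefSeq transcripts in the table, MMP1 and MMP2 with 2 transcripts each.

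RNA was sequenced from the HMLE line, which is human mammary epithelium made immortal in culture. The cells carried either a SOX4 shRNA, SOX4 being a SoxC transcription factor, or a scrambled shRNA, and each kind was given TGF-β for 16 h or left untreated. All 4 groups had undergone lentiviral transduction and puromycin selection at 0.5 µg/mL, and each group has 2 libraries. The knockdown rests on 1 shRNA in 1 cell line, and the TGF-β dose is not given in the sources used here. Cells with the SOX4 shRNA are called knockdown cells below, and those with the scrambled shRNA control cells.

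Library scales corresponded to 12.6 to 16.8 M reads. SOX4 itself measured 2.12 ± 0.351 FPKM in TGF-β-treated knockdown cells and 18.1 ± 0.803 FPKM in TGF-β-treated control cells, and 0.972 ± 0.0683 FPKM in untreated knockdown cells and 8.39 ± 0.493 FPKM in untreated control cells (SD, n = 2 each). FPKM is reads per kilobase of transcript and M reads, so levels can be set side by side between genes. The basal keratins KRT5 and KRT14 summed to 4387 to 6051 FPKM in every library, as the mammary epithelial label implies. The endothelial markers PECAM1, VWF and CDH5 summed to at most 0.175 FPKM, with CDH5 at 0 in every library. Libraries of 1 group differed by more than counting noise, with a median chi-square per gene of 5.68 and 5.83 in TGF-β-treated and untreated knockdown cells, against 1.25 and 2.51 in the matching control cells. The labels do not say whether replicate libraries are from different cultures, so all p-values rest on a spread between libraries that could be technical.

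Many cells of the table have lost their decimal mark, so that a value can be read in up to 3 ways that differ by factors of 10. The readings were narrowed by the whole number of reads behind each value, which can exclude a low reading. Whole readings that remained were weighed by a prior that favours alike groups and alike replicates, with a broad prior on the mean level. In addition, a whole reading below the true one was given a chance of 0.1. Each step above the lowest whole reading of a cell thus lowered its weight by a factor of 10. Only 104 genes had a single possible reading in every cell. The read numbers are given where they limit a result. Of the 10 genes, 8 passed the filter on low values, at least 1 FPKM in at least 2 libraries. MMP3 and MMP13 did not pass it. MMP10 passed it through its TGF-β-treated libraries only.

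Coordinates are those of GRCh37 (GENCODE 44). MMP10, MMP1, MMP3 and MMP13 are all on the minus strand of chromosome 11, at 102641233 to 102651359, 102660132 to 102668891, 102706532 to 102714340 and 102813724 to 102826461, with 10 exons each. MMP14 lies on chromosome 14 at 23305769 to 23318250 with 10 exons. MMP2 lies on chromosome 16 at 55423612 to 55540603 with 13 exons, and MMP9 on chromosome 20 at 44637547 to 44645200, also with 13. TIMP1 spans 47441807 to 47446188 on chromosome X with 6 exons and TIMP3 spans 33197691 to 33259028 on chromosome 22 with 5 exons, all of these on the plus strand. TIMP2 spans 76849059 to 76921469 on the minus strand of chromosome 17 with 5 exons. TIMP1 and TIMP3 each sit within a synapsin gene, SYN1 and SYN3, which runs on the other strand. Whether reads were counted by strand is not given in the sources used here, so MMP1, MMP9 and TIMP2, whose exons overlap those of a gene on the opposite strand, and MMP2, whose exons overlap those of another gene on its own strand, are uncertain to that degree. WTAPP1, the pseudogene opposite MMP1 that also encloses MMP10, was listed at 0 to 0.0295 FPKM.

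Promoters from 250 bases before to 50 bases after the start were held for MMP10, MMP14, TIMP1 and TIMP3 in the RefSeq table used (GRCh38.p14). They are shown because MMP10, MMP14 and TIMP3 were the fitted 1-transcript genes that rose with TGF-β in both kinds of cell, and TIMP1 did not pass the test. Capitals mark every match, on either strand, to AP-1 (TGAGTCA, the same site as its complement), to ETS/PEA3 (AGGAAG), to SOX (AACAAAG or else the letters AACAATG), to SMAD (CAGACA), to a TATA box (TATAAA) or to a GC box (GGGCGG).
MMP10, chr11:102780579-102780878, minus strand: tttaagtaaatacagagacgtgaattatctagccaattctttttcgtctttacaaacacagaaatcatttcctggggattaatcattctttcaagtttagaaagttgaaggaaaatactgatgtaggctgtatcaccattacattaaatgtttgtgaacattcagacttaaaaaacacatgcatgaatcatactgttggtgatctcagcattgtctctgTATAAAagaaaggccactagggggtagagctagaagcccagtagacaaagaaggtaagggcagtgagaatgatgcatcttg
MMP14, chr14:22836335-22836634, plus strand: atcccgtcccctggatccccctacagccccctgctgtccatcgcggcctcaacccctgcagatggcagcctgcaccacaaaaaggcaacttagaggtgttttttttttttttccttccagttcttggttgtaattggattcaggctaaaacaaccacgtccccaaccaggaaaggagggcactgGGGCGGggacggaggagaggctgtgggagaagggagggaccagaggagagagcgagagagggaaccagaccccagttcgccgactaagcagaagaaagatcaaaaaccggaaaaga
TIMP3, chr22:32801455-32801754, plus strand: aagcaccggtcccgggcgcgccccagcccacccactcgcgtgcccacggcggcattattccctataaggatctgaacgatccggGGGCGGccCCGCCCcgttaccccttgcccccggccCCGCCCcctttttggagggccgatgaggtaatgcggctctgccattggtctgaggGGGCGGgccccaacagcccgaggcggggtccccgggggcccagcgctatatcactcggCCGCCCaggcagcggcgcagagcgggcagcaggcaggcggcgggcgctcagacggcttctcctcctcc
TIMP1, chrX:47582186-47582485, plus strand: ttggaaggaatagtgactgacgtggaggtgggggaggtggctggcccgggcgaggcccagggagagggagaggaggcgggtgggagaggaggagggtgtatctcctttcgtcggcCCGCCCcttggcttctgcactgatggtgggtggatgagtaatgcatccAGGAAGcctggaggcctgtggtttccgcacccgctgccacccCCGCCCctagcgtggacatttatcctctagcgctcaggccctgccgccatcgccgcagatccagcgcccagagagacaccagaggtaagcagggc

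The MMP10 promoter held a TATA box at -31 from the start and no GC box, and 36.3% of its bases were G or C. The MMP14, TIMP3 and TIMP1 promoters held 1, 5 and 2 GC boxes and no TATA box, with G or C at 55.0%, 72.7% and 65.0% of bases. The ETS/PEA3 letters stood in the TIMP1 promoter alone, at -87. The AP-1, SOX and SMAD letters were not in these 4 windows. Among the 35116 promoters of the table, 11.5% held the TATA letters, 45.0% the GC box, 33.6% ETS/PEA3, 4.95% AP-1, 8.22% SOX and 16.9% SMAD. A match is a run of letters and was not tested as a binding site.

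**Figure D1:**
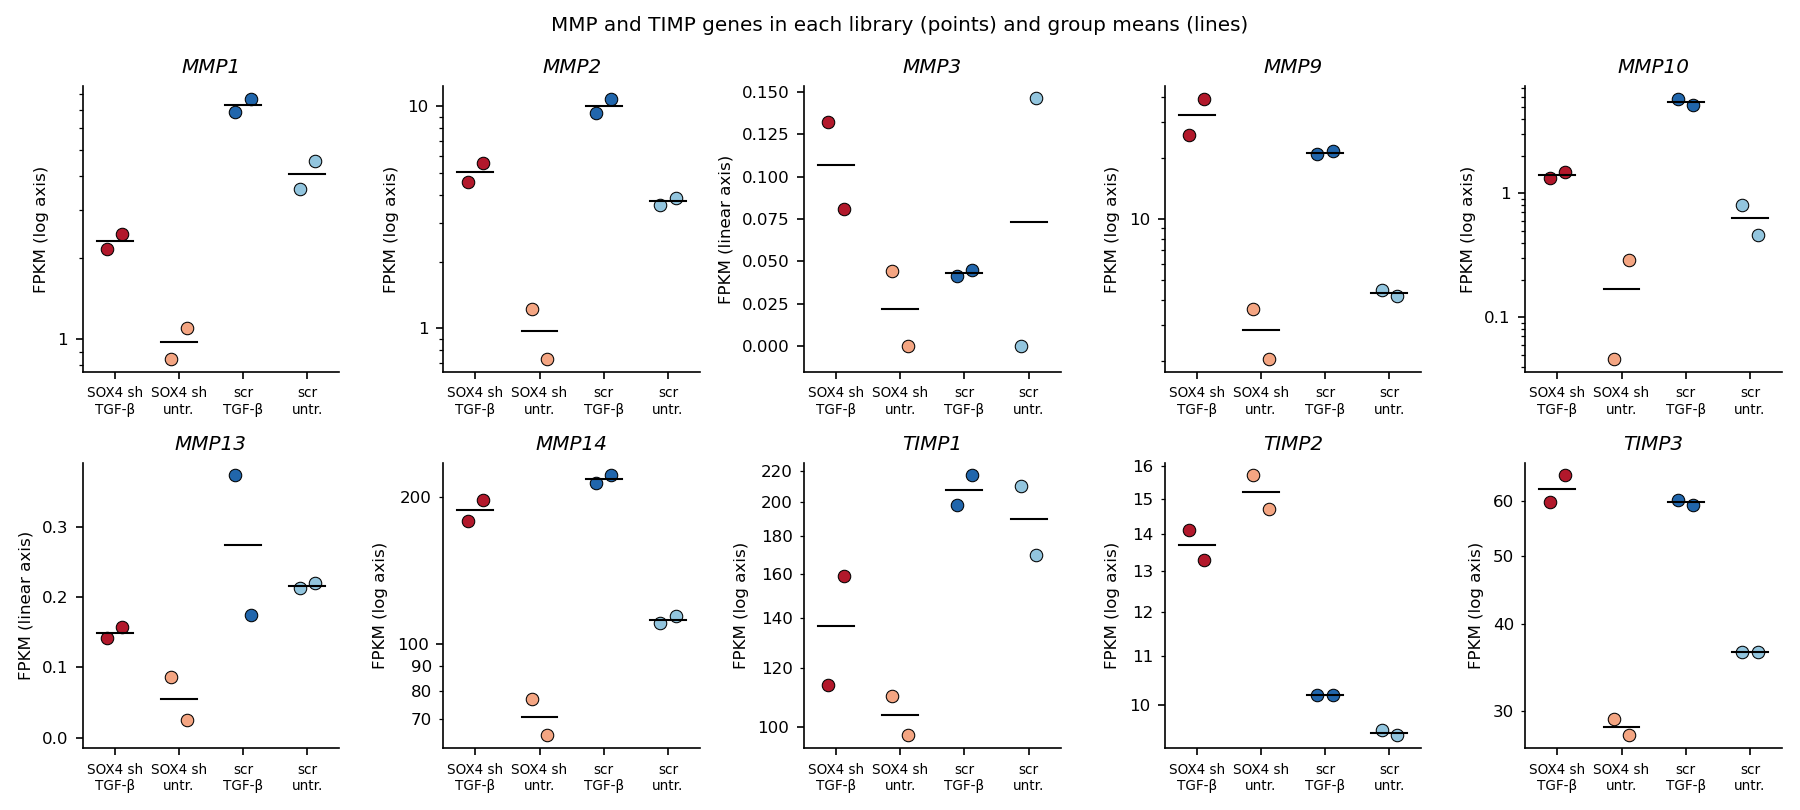
FPKM of the 10 genes in each library (points, 2 per group) with group means (lines). Axes differ between panels and are logarithmic except for MMP3 and MMP13. MMP14, TIMP1 and TIMP3 are the most abundant, and MMP3 stays at or below 0.146 FPKM.

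In untreated control cells TIMP1 led with 190 ± 27.9 FPKM, followed by MMP14 at 112 ± 2.73, TIMP3 at 36.5 ± 0.0179 and TIMP2 at 9.47 ± 0.0702 FPKM (SD, n = 2). MMP9 (4.33 ± 0.194), MMP1 (4.07 ± 0.703) and MMP2 (3.73 ± 0.185 FPKM) came next. MMP1 ranged over the values of both of its neighbours in this order. MMP10 stood at 0.631 ± 0.245 FPKM, and MMP13 and MMP3 were lower still. The membrane-anchored protease and the 3 inhibitors had the highest means there at the readings used. At the next higher readings of its lost mark, 44.7 and 41.9 FPKM, MMP9 would stand above TIMP3 and TIMP2. At the highest, 447 and 419 FPKM, it would stand above TIMP1 and MMP14 as well. In TGF-β-treated knockdown cells MMP14, at 188 ± 13.8 FPKM, stood above TIMP1, at 136 ± 31.6 FPKM, and in untreated knockdown cells below it, at 70.7 ± 8.54 against 104 ± 9.10 FPKM. In TGF-β-treated control cells MMP14 averaged 218 ± 5.31 and TIMP1 207 ± 13.4 FPKM, with overlapping libraries, and in untreated control cells MMP14 was again the lower, at 112 ± 2.73 against 190 ± 27.9 FPKM.

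The first question was what TGF-β changed in knockdown cells. MMP1, MMP2, MMP10, MMP14 and TIMP3 rose, 5 of the 7 genes tested, and none fell. TIMP1 and TIMP2 did not pass the test. Among all 4910 genes tested, 5.48% rose and 2.22% fell (7.7% in either direction). The libraries of the groups did not overlap in 8 of the 8 fitted genes, against 43.9% of all genes. The median difference of the 8 fitted genes was 1.08 on the log2(FPKM + 1) scale, beside -0.042 for all genes, and since MMP10 had to differ to pass the filter, these counts describe the list and are no test of it.

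MMP14 activates pro-MMP2 at the cell surface. It measured 179 and 198 FPKM in TGF-β-treated knockdown libraries and 76.7 and 64.7 FPKM in untreated ones. It thus stood 2.66-fold higher, a difference of 1.40 ± 0.12 (log2, SE, adjusted p = 0.0011), and the groups were far apart. MMP2, the gelatinase that cuts type IV collagen, summed over its transcripts to 4.55 and 5.58 FPKM with TGF-β (209 and 281 reads) and 1.22 and 0.730 FPKM without (56 and 36 reads). Its difference of 1.62 ± 0.16 (adjusted p = 0.0018) went with a 5.18-fold ratio of means. All MMP2 levels rest on a pair of transcript lengths that passed the search only narrowly. TIMP3, an inhibitor that stays bound to the matrix, measured 59.8 and 65.3 FPKM with TGF-β and 29.2 and 27.7 FPKM without. The TIMP3 difference was 1.11 ± 0.10 (adjusted p = 0.0013), and neither library of 1 group came near the other group.

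MMP10, which cleaves proteoglycans and fibronectin, measured 1.33 and 1.48 FPKM with TGF-β (29 and 35 reads) and 0.0462 and 0.290 FPKM without (1 and 7 reads). The difference was 1.05 ± 0.16 (adjusted p = 0.011), with the untreated level resting on 8 reads in all. MMP1, the interstitial collagenase, summed to 2.16 and 2.44 FPKM with TGF-β and 0.846 and 1.10 FPKM without, a difference of 0.75 ± 0.14 (adjusted p = 0.024). TIMP1 measured 114 and 159 FPKM with TGF-β and 110 and 97.5 FPKM without. All TIMP1 libraries with TGF-β were higher, but the difference of 0.37 ± 0.18 did not pass (adjusted p = 0.264). TIMP2 measured 14.1 and 13.3 FPKM with TGF-β and 15.7 and 14.7 FPKM without (-0.14 ± 0.10, adjusted p = 0.449). The MMP1 call was lost without either TGF-β-treated control library (adjusted p = 0.059 and 0.06), either untreated knockdown library (0.088 and 0.056) or either TGF-β-treated knockdown library (0.057 and 0.11). The MMP10 call was lost without replicate 2 of TGF-β-treated knockdown cells (adjusted p = 0.064). When all kept genes were fitted, the adjusted p was 0.102 for MMP1 and 0.055 for MMP10, and with no filter it was 0.074 for MMP1.

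MMP9, a gelatinase of invading cells and leukocytes, showed the widest gap, but its reading is the least certain. It measured 26.0 and 38.9 FPKM in TGF-β-treated knockdown libraries (774 and 1259 reads) and 3.61 and 2.05 FPKM in untreated ones (107 and 68 reads). In control cells it measured 20.9 and 21.5 FPKM with TGF-β (664 and 629 reads) and 4.47 and 4.19 FPKM without (160 and 113 reads). The TGF-β-treated libraries cannot be read lower, since 2.60, 3.89, 2.09 and 2.15 FPKM (knockdown, then control) are not whole numbers of reads. The untreated libraries can be read 10 times higher, at 36.1 and 20.5 FPKM in knockdown and 44.7 and 41.9 FPKM in control libraries. Those readings would require read numbers that all end in 0. Still higher readings are whole too, at 361 and 205 FPKM in untreated knockdown and 447 and 419 FPKM in untreated control libraries. With TGF-β, higher whole readings were 260 and 389 FPKM in the knockdown libraries and 215 FPKM in control replicate 2. The readings used held a posterior of 0.944 in knockdown and 0.947 in control cells, under the 0.95 required for a test. Both values depend on the weight of 0.1 set for each step to a higher whole reading. As fitted, MMP9 stood 3.13 ± 0.23 higher with TGF-β in knockdown cells and 2.06 ± 0.23 higher in control cells. With the minimum posterior set at 0.9 both differences passed (adjusted p = 6.59e-04 and 0.0043). With the untreated libraries read 10 times higher the difference would be 0.21 in knockdown cells and negative in control cells.

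**Figure D2:**
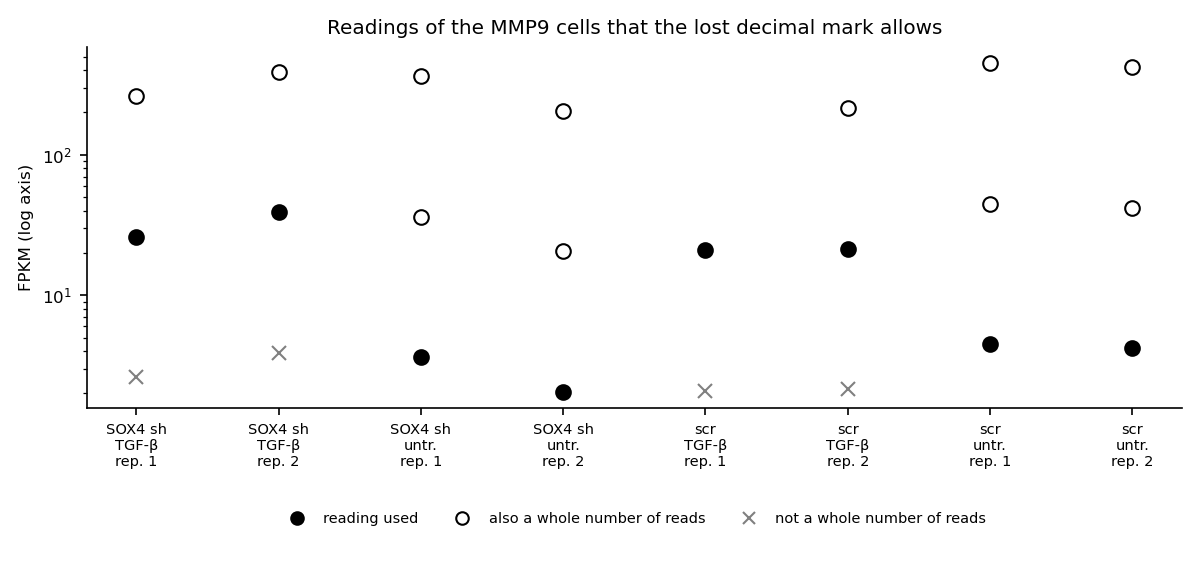
Readings of MMP9 in FPKM (log axis) that the lost decimal mark allows in each library. Filled circles are the readings used, open circles other readings that are whole numbers of reads, and crosses readings that are not. In the 4 TGF-β-treated libraries the lowest reading is a cross, and in the 4 untreated libraries it is the one used.

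The second question was the same for control cells. The genes that rose were again MMP1, MMP2, MMP10, MMP14 and TIMP3, 5 of 7 tested, and none fell, where 4.35% of all 4924 genes rose and 2.09% fell (6.44% in either direction). The groups did not overlap in 7 of the 8 fitted genes, against 63.4% of all genes. The median of the 8 fitted genes was 0.83, beside -0.037 for all genes. MMP10, which passed the filter only through its TGF-β-treated libraries and so had to differ, had a difference of 1.98 ± 0.16 (adjusted p = 9.07e-04). It measured 5.75 and 5.10 FPKM with TGF-β (133 and 109 reads) and 0.804 and 0.458 FPKM without (21 and 9 reads), an 8.60-fold ratio of means. MMP2 measured 9.38 and 10.8 FPKM with TGF-β and 3.60 and 3.87 FPKM without, and rose by 1.23 ± 0.16 (adjusted p = 0.0071). MMP14 measured 214 and 222 FPKM with TGF-β and 110 and 114 FPKM without (0.95 ± 0.12, adjusted p = 0.0059). In each of these genes the groups did not overlap. The untreated MMP10 libraries rest on few reads and are the least alike.

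TIMP3 measured 60.3 and 59.3 FPKM in TGF-β-treated control libraries and 36.5 FPKM in both untreated ones, a rise of 0.70 ± 0.10 (adjusted p = 0.01). MMP1 measured 6.90 and 7.70 FPKM with TGF-β and 3.57 and 4.56 FPKM without (0.72 ± 0.14, adjusted p = 0.03). TIMP1, with 198 and 217 FPKM against 210 and 170 FPKM, overlapped between the groups (0.13 ± 0.18, adjusted p = 0.698). TIMP2 held 10.2 FPKM in both TGF-β-treated libraries and 9.52 and 9.42 FPKM in untreated ones (0.09 ± 0.10, adjusted p = 0.61). Without untreated replicates 1 and 2 the adjusted p was 0.194 and 0.072 for MMP1 and 0.093 and 0.081 for TIMP3, and without TGF-β-treated replicates 1 and 2 it was 0.163 and 0.215 for MMP1 and 0.118 and 0.109 for TIMP3. MMP2 and MMP14 were lost without untreated replicate 1 (0.069 and 0.065), and without TGF-β-treated replicates 1 and 2 (0.06 and 0.085 for MMP2, 0.073 and 0.084 for MMP14). The MMP1 call was also lost with 0.1 FPKM added in place of 1 (adjusted p = 0.051) or no filter (0.083), while MMP1 and MMP2 had adjusted p of 0.11 and 0.055 when all kept genes were fitted.

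**Figure D3:**
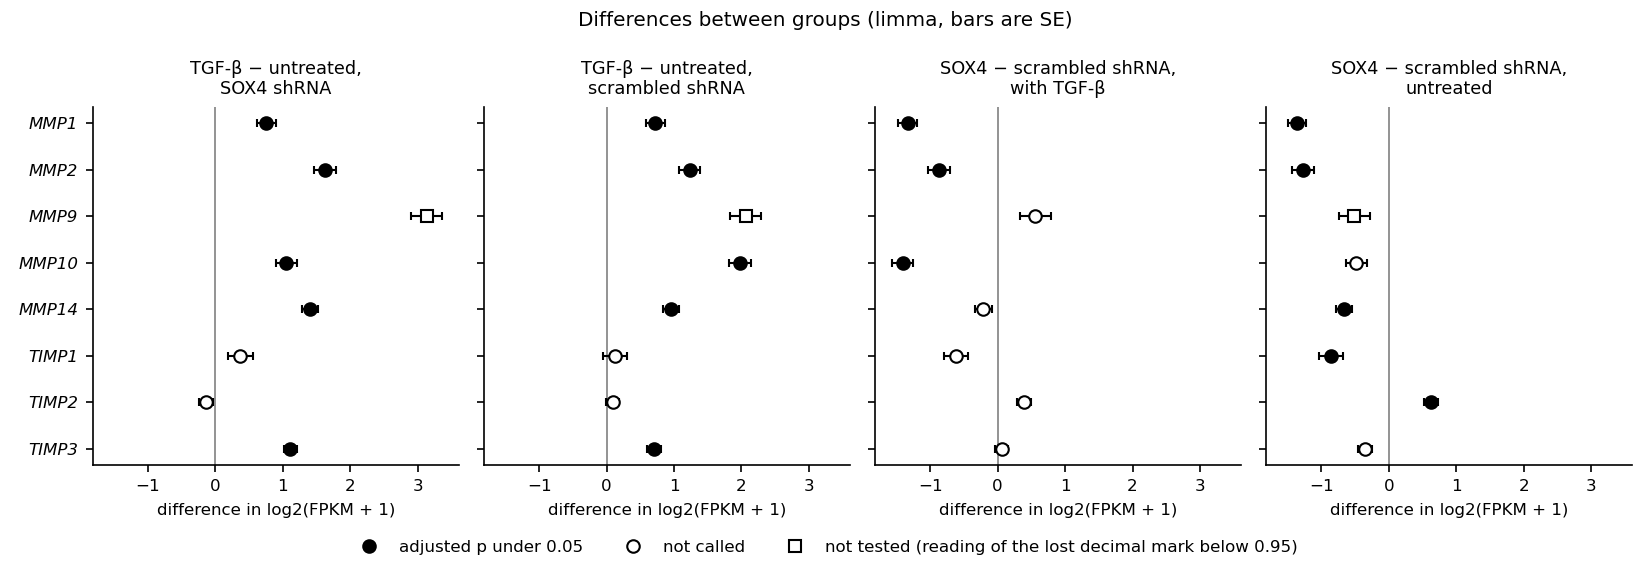
Differences in log2(FPKM + 1) between groups (x axis) for the 8 fitted genes, with SE. Filled circles passed an adjusted p of 0.05, open circles did not, and squares were not tested because the reading of the lost decimal mark was too uncertain. MMP1, MMP2, MMP10, MMP14 and TIMP3 are filled in both TGF-β panels, and TIMP2 is the only filled point right of 0 in the knockdown panels.

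The comparisons below share libraries with those above. The third question was what SOX4 knockdown changed with TGF-β present. MMP1, MMP2 and MMP10 fell, 3 of the 8 genes tested, and none rose. Among all 4921 genes 2.89% fell and 1.26% rose (4.15% in either direction). The groups did not overlap in 7 of the 8 fitted genes, against 46.5% of all genes, and the median of the 8 was -0.41, beside 0.013 for all genes. MMP10 measured 1.33 and 1.48 FPKM in TGF-β-treated knockdown libraries and 5.75 and 5.10 FPKM in TGF-β-treated control libraries, and fell by 1.41 ± 0.16 (adjusted p = 0.0038), to 0.260 of the control mean. MMP1 measured 2.16 and 2.44 FPKM in knockdown and 6.90 and 7.70 FPKM in control libraries (-1.33 ± 0.14, adjusted p = 0.0028). MMP2 measured 4.55 and 5.58 FPKM in knockdown and 9.38 and 10.8 FPKM in control libraries (-0.87 ± 0.16, adjusted p = 0.027). For each of these genes the knockdown libraries lay below both control libraries.

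The other genes did not pass with TGF-β present. MMP9 was higher in both knockdown libraries, at 26.0 and 38.9 FPKM against 20.9 and 21.5 FPKM (0.56 ± 0.23, adjusted p = 0.276). MMP14, with 179 and 198 FPKM in knockdown and 214 and 222 FPKM in control libraries, differed by -0.21 ± 0.12 (adjusted p = 0.45). TIMP1 held 114 and 159 FPKM against 198 and 217 FPKM (-0.62 ± 0.18, adjusted p = 0.133), and TIMP2 14.1 and 13.3 FPKM against 10.2 FPKM in both control libraries (0.39 ± 0.10, adjusted p = 0.087). TIMP3 overlapped between the groups (0.06 ± 0.10, adjusted p = 0.836, 95% interval -0.17 to 0.30). The MMP2 call was lost without any of 6 libraries, namely either untreated control library (adjusted p = 0.061 each), TGF-β-treated control replicate 1 or 2 (0.133 and 0.243) and TGF-β-treated knockdown replicate 1 or 2 (0.123 and 0.063), and under a pseudocount of 0.1 (0.072), no filter (0.083) and all kept genes (0.138). The MMP10 call was lost without TGF-β-treated control replicate 1 (0.057) and under a pseudocount of 0.1 (0.084).

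The fourth question was what the knockdown changed without TGF-β. MMP1, MMP2, MMP14 and TIMP1 fell and TIMP2 rose, among 7 genes tested, where 2.73% of all 4915 genes fell and 0.814% rose (3.54% in either direction). The groups did not overlap in 8 of the 8 fitted genes, against 46% of all genes, and the median of the 8 was -0.58, beside -0.012 for all genes. MMP1 measured 0.846 and 1.10 FPKM in untreated knockdown libraries (20 and 30 reads) and 3.57 and 4.56 FPKM in untreated control libraries (111 and 104 reads). Its difference was -1.36 ± 0.14 (adjusted p = 0.0041), with a ratio of means of 0.239. MMP2 measured 1.22 and 0.730 FPKM in knockdown and 3.60 and 3.87 FPKM in control libraries (-1.27 ± 0.16, adjusted p = 0.0081). MMP14 measured 76.7 and 64.7 FPKM in knockdown and 110 and 114 FPKM in control libraries (-0.66 ± 0.12, adjusted p = 0.028). In none of these genes did the groups overlap.

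The inhibitors moved in opposite directions in untreated knockdown cells. TIMP1, a soluble inhibitor that also binds pro-MMP9, measured 110 and 97.5 FPKM in knockdown and 210 and 170 FPKM in control libraries, and fell by 0.86 ± 0.18 (adjusted p = 0.049). TIMP2, which inhibits MMPs and also serves as the bridge by which MMP14 binds pro-MMP2, measured 15.7 and 14.7 FPKM in knockdown and 9.52 and 9.42 FPKM in control libraries (0.63 ± 0.10, adjusted p = 0.018). No other tested member was called higher on knockdown. TIMP3, with 29.2 and 27.7 FPKM in knockdown and 36.5 FPKM in both control libraries, did not pass (-0.35 ± 0.10, adjusted p = 0.117). MMP10 did not pass (-0.48 ± 0.16, adjusted p = 0.172), with 1 and 7 reads in knockdown and 21 and 9 reads in control libraries. Its ratio of means was 0.266, near the 0.260 found with TGF-β, so the smaller difference depends on the 1 FPKM added to each level. With voom on whole reads it was -2.06 ± 0.72 (adjusted p = 0.187) without TGF-β and -1.93 ± 0.31 with it. MMP9, at the readings used, stood at -0.51 ± 0.23 and was not tested, with a posterior of 0.937.

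Several of these calls without TGF-β were near the threshold. TIMP1 was lost without untreated control replicates 1 and 2 (adjusted p = 0.276 and 0.124), TGF-β-treated control replicates 1 and 2 (0.111 and 0.112) and untreated knockdown replicates 1 and 2 (0.094 and 0.185). TIMP2 was lost without the same 6 libraries (0.129, 0.143, 0.065, 0.065, 0.077 and 0.057). MMP14 was lost without untreated control replicates 1 and 2 (0.146 and 0.189), either TGF-β-treated control library (0.084 each) and untreated knockdown replicate 2 (0.114), and MMP2 without untreated control replicates 1 and 2 (0.066 and 0.064). With all kept genes the adjusted p was 0.069 for MMP2, 0.076 for MMP14 and 0.051 for TIMP2, and with no filter 0.055 for MMP14. The MMP1 call was kept without each of the 8 libraries, with adjusted p from 0.0078 to 0.033, and with TGF-β from 0.004 to 0.048. TIMP1 also missed the threshold under a scaling to a common median (0.051), a filter of 5 FPKM (0.055), no filter (0.112), voom on whole reads (0.05) and all kept genes (0.162), more settings than for any other of these calls.

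Levels of marker genes of other cells were set beside the knockdown differences. The fibroblast markers LUM, PDGFRA and PDGFRB, 3 of 4 in that list, summed to 0.983 to 1.06 FPKM in TGF-β-treated knockdown cells and 1.72 to 2.28 FPKM in TGF-β-treated control cells, and to 0.525 to 0.804 FPKM in untreated knockdown cells and 1.28 to 1.32 FPKM in untreated control cells. PDGFRB alone measured 0.934 and 1.06 FPKM in TGF-β-treated knockdown libraries and 1.59 and 2.18 FPKM in TGF-β-treated control libraries (adjusted p = 0.128). Without TGF-β it measured 0.744 and 0.514 FPKM in knockdown and 1.23 and 1.12 FPKM in control libraries (adjusted p = 0.188). LUM and PDGFRA stayed at or below 0.105 FPKM. DCN, the remaining fibroblast marker, has 6 transcripts with 1 lost mark and was left out of the sum. Of 4 leukocyte markers, PTPRC and ITGAM summed to 0.110 to 0.189 FPKM in TGF-β-treated knockdown cells and 0.0296 to 0.0641 FPKM in TGF-β-treated control cells. Without TGF-β the sum was 0.0158 to 0.0845 FPKM in knockdown and 0.0167 to 0.0394 FPKM in control cells. MPO ranged from 0.0438 to 0.167 FPKM in knockdown and from 0.677 to 1.11 FPKM in control libraries. CD68, the remaining leukocyte marker, has 2 transcripts with 13 lost marks that whole reads did not restore, so its level is not known. The part of such cells in these results was not tested, and in bulk RNA fewer cells of a type and less RNA per cell cannot be told apart.

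Whether the TGF-β response differed between the kinds of cell was tested by the interaction. None of the 7 genes tested passed, and 0.123% of all 4894 genes did, 0.0817% higher and 0.0409% lower. At an unadjusted p under 0.05, 3 of the 7 passed in the limma fit, against 131 of all 4894 genes. With voom on whole reads the adjusted test also called none of them. MMP10 had the smallest unadjusted p, 0.0043, with a difference of -0.93 ± 0.23 (adjusted p = 0.951). That value depends on the 1 FPKM added to each level. The ratio of means with TGF-β to untreated was 8.38 in knockdown and 8.60 in control cells, and voom put the difference at 0.13 ± 0.78. MMP14 (0.45 ± 0.17, 95% interval 0.06 to 0.84) and TIMP3 (0.41 ± 0.14, 0.08 to 0.74) had larger estimated rises in knockdown than in control cells. Neither passed (adjusted p = 0.998 each). For MMP2 the difference was 0.40 ± 0.23 (adjusted p = 0.999), with a 95% interval of -0.13 to 0.93 that includes 0. MMP1 stood at 0.03 ± 0.20, with a 95% interval of -0.45 to 0.50.

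The collagenase MMP13 and the stromelysin MMP3 were close to the limit of detection. MMP13 had 5 and 6 reads in TGF-β-treated knockdown libraries and 3 and 1 in untreated ones, and 14 and 6 reads in TGF-β-treated control libraries and 9 and 7 in untreated ones. This is 0.142 and 0.157 FPKM, 0.0858 and 0.0256 FPKM, 0.374 and 0.174 FPKM, and 0.213 and 0.220 FPKM in that order. The lowest values were those of untreated knockdown cells. With voom on whole reads the knockdown difference without TGF-β was -1.87 ± 0.74 (adjusted p = 0.24) and the other MMP13 contrasts had adjusted p of at least 0.341. MMP3 had 3 and 2 reads in TGF-β-treated knockdown libraries, 1 and 0 in untreated ones, 1 in each TGF-β-treated control library, and 0 and 3 in untreated control libraries. Differences in MMP3 were not detectable at this depth. In the libraries at 0 reads, 3 reads would have given 0.119 FPKM in untreated knockdown replicate 2 and 0.110 FPKM in untreated control replicate 1.

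MMP10, MMP1, MMP3 and MMP13 belong to a cluster of 9 MMP genes on chromosome 11, from 102391239 to 102826461, a span of 435 kb. All 9 run on the minus strand, in the order MMP7, MMP20, MMP27, MMP8, MMP10, MMP1, MMP3, MMP12 and MMP13. MMP10 and MMP1, the pair with an expressed level, are neighbours with a gap of 8.8 kb. Their means were 1.41 and 2.30 FPKM in TGF-β-treated knockdown cells, 0.168 and 0.972 FPKM in untreated knockdown cells, 5.42 and 7.30 FPKM in TGF-β-treated control cells and 0.631 and 4.07 FPKM in untreated control cells. MMP3, 37.6 kb beyond MMP1, and MMP8, 43.5 kb before MMP10, reached at most 0.146 and 0.277 FPKM. MMP20 and MMP12 were listed at 0 in every library, and MMP7, the matrilysin of glandular epithelia, at 0.0780 to 0.549 FPKM.

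**Figure D4:**
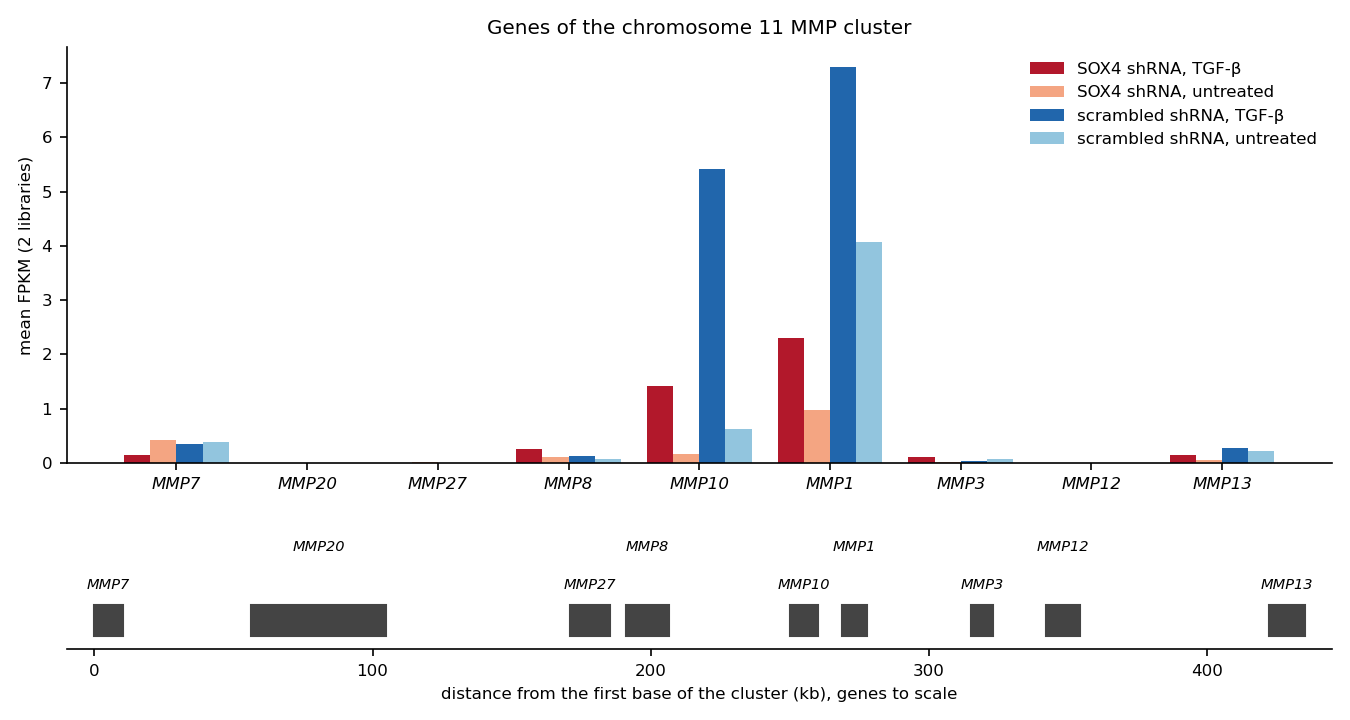
Mean FPKM of 2 libraries per group for the 9 genes of the chromosome 11 MMP cluster in genomic order (bars, upper panel), with the genes drawn to scale by their distance in kb from the cluster's first base (lower panel). MMP10 and MMP1 have the only tall bars, the tallest at 5.42 and 7.30 FPKM in TGF-β-treated control cells.

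Other genes of the pathway were taken from lists. Of 17 other MMP and TIMP genes, 12 were below 1 FPKM in every library, at most 0.549 FPKM, 5 of these at 0. The membrane-type MMP15, MMP17 and MMP25 were fitted, and none was called in any contrast. Among these 3, MMP17 was the most abundant, at 4.51 and 5.41 FPKM in TGF-β-treated knockdown libraries and 3.56 and 2.40 FPKM in untreated ones (0.60 ± 0.17, adjusted p = 0.085), and at 3.81 and 4.69 FPKM against 4.21 and 3.77 FPKM in control cells. MMP19 and MMP28 had lost marks that whole reads did not restore, so their levels are not ranked. The median over these 3 genes lay between 0.06 and 0.22 in the pairwise contrasts, beside -0.042 to 0.013 for all genes.

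A list of 17 genes covered the plasmin system and other regulators of MMP activity. RECK, a membrane-anchored MMP inhibitor, measured 1.55 to 1.88 FPKM in all 8 libraries and was not called (adjusted p = 0.57 to 0.998). PLAU, the urokinase gene, has 2 transcripts in the table, of which the main one had an intact value of 210 FPKM in untreated control replicate 2 and a lost mark in the other 7 libraries. PLAUR, its receptor, and BSG, a surface inducer of MMPs also known as CD147, have 4 transcripts each with lost marks in 18 and 17 cells. These 3 genes were not among those restored from whole reads and were not tested there.

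CD44 and THBS1 were called when all kept genes were fitted. That fit takes 1 transcript for each gene and reads lost marks without whole reads. It tested 3 to 5 of the 17 listed genes, depending on the contrast. CD44 has 8 transcripts with 43 lost marks, and THBS1 has 1 transcript with 2. The CD44 values below are those of 1 transcript and not of the whole gene. CD44, a hyaluronan receptor that docks MMP9 and MMP14, measured 188 and 172 FPKM in TGF-β-treated knockdown libraries, 121 and 120 FPKM in untreated knockdown libraries, 277 and 266 FPKM in TGF-β-treated control libraries and 177 and 189 FPKM in untreated control libraries. With TGF-β this transcript rose by 0.58 ± 0.06 in knockdown and 0.57 ± 0.06 in control cells (adjusted p = 0.028 and 0.032). On knockdown it fell by 0.59 ± 0.06 with and 0.60 ± 0.06 without TGF-β (adjusted p = 0.03 and 0.04). THBS1, a matricellular activator of latent TGF-β, measured 1857 and 1671 FPKM with TGF-β and 974 and 968 FPKM without in knockdown cells (0.86 ± 0.07, adjusted p = 0.015). Its response in control cells, with 1418 and 1329 FPKM against 1046 and 1071 FPKM, did not pass (0.38 ± 0.07, adjusted p = 0.087), nor did the knockdown difference with TGF-β (0.36, adjusted p = 0.132) or without (-0.12, adjusted p = 0.578).

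Of 14 genes for transcription factors that act on MMP promoters, 6 were fitted, and JUN alone was called, in 1 contrast. JUN, a subunit of AP-1, measured 56.5 and 61.0 FPKM in TGF-β-treated knockdown libraries and 42.3 and 33.6 FPKM in untreated ones (0.62 ± 0.14, adjusted p = 0.042). In control cells it measured 42.1 and 44.5 FPKM with TGF-β and 32.4 and 27.6 FPKM without (0.52 ± 0.14, adjusted p = 0.071). The call was lost without any 1 of 7 libraries. The adjusted p was 0.154 without untreated knockdown replicate 2, 0.079 and 0.148 without TGF-β-treated knockdown replicates 1 and 2, 0.095 without either TGF-β-treated control library and 0.068 without either untreated control library. With all kept genes it was 0.109.

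The members also differed in how they moved together over the 8 libraries, given as Pearson r of log2(FPKM + 1), a description since the libraries share their groups. TIMP3 had an r of 0.98 to MMP14, and MMP14 one of 0.96 to MMP2. At the readings used, MMP9 had an r of 0.98 to TIMP3 and 0.93 to MMP14. Every r of MMP9 rests on its untreated readings, which were too uncertain for a test. MMP1 was nearest to TIMP1 (0.90), MMP2 (0.89) and MMP10 (0.82). TIMP2 had a negative r to each of the other 7 fitted members, from -0.08 to MMP9 down to -0.90 to TIMP1 and -0.87 to MMP1. Outside the family, the genes most like each member were sought among 363 fitted genes whose group means span at least 1. For MMP1 they were the cadherin CDH11 (0.992) and CYP27C1 (0.991), for MMP2 the collagen COL17A1 (0.994), and for MMP9 the integrin ITGA5 (0.994) and KCTD11 (0.993). For MMP10 they were TP53INP2 (0.982) and the collagen COL22A1 (0.981), for MMP14 the metalloprotease ADAM19 (0.995) and the kinase PIK3CD (0.994), and for TIMP3 the matrix protein TGFBI (0.998) and the transporter SLCO2A1 (0.994). The readings of CDH11, ADAM19, TGFBI and SLCO2A1 had a lowest posterior under 0.95 in some contrast.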

How the data were processed

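RNA was measured in 8 libraries, whose titles give the groups. Per the labels' protocols, a stranded kit that removes ribosomal RNA was used with single reads of 75 nt, though a further label says polyA RNA. The tools were Cufflinks 2.2.1 with Cuffdiff, TopHat2 2.0.9 and the hg19 build, per the submitters' processing notes. Each deposited value is taken as an FPKM of 1 of 48175 RefSeq transcripts, a score in damaged notation. In 34.1% of cells, with values from 1 up to 1000, the decimal mark is lost (some such values are intact), and 13.9%, in a shifted exponent notation, lie below 1e-04 and were set to 0. RefSeq identifiers gave symbols for 47097 transcripts (97.76%).

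For a gene with 1 transcript, the FPKM divided by what 1 read is worth, which depends on library and length, is whole. Library factors came from genes of very few reads, and the length was searched so that at least 6 of 8 cells were whole. Of 5613 genes, 4957 (88.3%) gave whole reads, against 54 with the last 3 digits randomised. Remaining readings were weighed by a multivariate t prior with 3 degrees of freedom and a broad prior on the mean level. Each step above the lowest whole reading of a cell was given a weight of 0.1. A contrast was tested only where the reading held a posterior of at least 0.95. MMP1 and MMP2 were searched over pairs of lengths and summed over their transcripts, a choice made after seeing the data. All 8 cells of each were whole (lengths 1903 and 2055 nt for MMP1, 3379 and 3526 nt for MMP2). Higher whole readings of MMP2 reached 640 and 1080 FPKM in TGF-β-treated control replicates 1 and 2 and 455 FPKM in TGF-β-treated knockdown replicate 1. Those of MMP1 reached 456 FPKM in untreated control replicate 2 and 24.4 FPKM in TGF-β-treated knockdown replicate 2. Given these lengths, the readings used held a posterior of 1.000. The margin of MMP2, 2.09 on the log10 scale, barely exceeded the minimum of 2, and 10 decoys reached at most 1.57. The next pair of lengths for MMP2 had 5 whole cells and a margin of 1.51, and a decoy reached 7 whole cells.

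The 4957 genes were fitted as log2(FPKM + 1) by limma (version 3.58.1, R 4.3.3) with 4 groups in 1 fit and eBayes variances that follow the mean level, and p-values were Benjamini-Hochberg adjusted over all genes, with calls at 0.05. Fold changes on this scale understate the change of low genes. MMP1 and MMP2 come from the same fit with these genes added. On simulated data for TGF-β in scrambled-shRNA cells (4805 genes), 98.94% of cells were restored. Of those genes changed by known 2-fold steps, 89.7% were recovered, and 4 calls were false. Restoration in comparisons that involve knockdown cells, and of changes larger than 2-fold, was not tested in this way. The values were deposited as FPKM, so no count test was the main one, although the fit is restricted to whole-read genes because of the lost marks.

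The members, gene lists and tests were chosen with earlier results of these data known. Named were the 10 members, SOX4, called genes of the lists, PLAU, PLAUR, RECK and BSG whatever their values, and for each member the 2 most alike genes. Some genes these rules name are not reported here. TATA and GC boxes, CD44 and THBS1 were added after values were seen. Alternatives were another pseudocount, 2 filters, a common median, no trend, a replicate block, leaving out each library, all 12012 kept genes, and, added after seeing the data, voom on whole reads, a posterior of 0.9 and a crossed block. Protein sequences were not used here.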

Additional observations from a re-analysis of the deposited data

Results flagged for a closer look

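MMP9 lay lower in both knockdown libraries than in both control libraries without TGF-β (-0.51 on the log2 scale, at the readings used). With TGF-β it lay higher in both (0.56), so the differences had opposite signs. Neither was called. That with TGF-β had an adjusted p of 0.276, and that without was tested only with a minimum posterior of 0.9 (adjusted p = 0.304, limma). The difference between these, 1.07 ± 0.33, was not tested at the posterior required (0.937) and had an adjusted p of 0.998 with a minimum of 0.9 (limma). TIMP2 lay lower in both TGF-β-treated than in both untreated knockdown libraries (-0.14) and higher in both TGF-β-treated than in both untreated control libraries (0.09). The interaction of TIMP2 was -0.24 ± 0.14 and did not pass (adjusted p = 0.998).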

How the results depend on the processing

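The number of genes called was 378 for TGF-β in knockdown cells, 317 for TGF-β in control cells, 204 for knockdown with TGF-β, 174 for knockdown without and 6 for the interaction. In this order, leaving out 1 library gave 147 to 230, 29 to 338, 43 to 197, 28 to 165 and 6 to 9 calls. The lowest were without TGF-β-treated knockdown replicate 2, TGF-β-treated control replicate 2 and 1, and untreated control replicate 1 for the pairwise comparisons. Among all kept genes the pairwise counts were 168, 117, 84 and 58, and 250 genes were called for TGF-β in knockdown cells with no filter. A filter of 5 FPKM gave 128 for knockdown with TGF-β. Deviations of same-numbered libraries had correlations of 0.11 and 0.355 within a treatment and -0.496 to -0.161 across treatments, and the labels tie the numbers to no shared batch, so the numbers were not taken to pair samples. With a replicate block the counts were 194, 136, 101 and 103, and 1026, 1092, 481 and 609 with crossed numbers, with 4 further member contrasts called.

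Of the member contrasts, directions reversed only near 0 or at low reads. Over the fits that left out 1 library the MMP1 interaction ranged from -0.11 to 0.17, and was -0.04, -0.06 and -0.03 in 3 of them. The TIMP1 response in control cells ranged from -0.02 to 0.28, and the MMP10 interaction 0.13 with voom. The block lost the calls of MMP2 on knockdown with TGF-β (adjusted p = 0.071) and of MMP14, TIMP1 and TIMP2 without (0.08, 0.114 and 0.053), and changed no other member call. The causes were not tested. With 2 libraries per group and 20 to 56 reads behind some levels of MMP1 and MMP2 and 1 to 35 behind those of MMP10 in knockdown cells, counting noise is large for these genes, and larger still for MMP3 and MMP13.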
